A study of Oniscidea with 6 samples.

Results

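Solute carriers are membrane proteins that move ions, sugars, amino acids and other small molecules across membranes. Those of 9 families, Slc1, Slc2, Slc4, Slc5, Slc6, Slc7, Slc8, Slc9 and Slc12, were followed in woodlice (Oniscidea, terrestrial isopod crustaceans) that were rolling or stretching. Rows were taken by symbol, as those that begin with the name of a member of these families, and 107 of the 24421 rows of the table were found. Of these, 101 name carriers. The other 6 only share the start of the name. Slc9a3r1 and Slc9a3r2 are scaffold proteins, Slc2a4rg-ps is a pseudogene and Slc4a1ap a partner protein. Slc6a19os and Slc7a6os are genes named for lying on the strand opposite a carrier gene.

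The data were poly(A) RNA of fresh tissue, with 3 samples labelled rolling and 3 labelled stretching, all untreated. The labels do not give the species, tissue, sex, age or stage of either group, nor whether each sample came from its own animal. The p-values therefore rest on the spread between these 6 libraries, part or all of which may be technical. The table names its rows by mouse symbols, so a symbol stands for reads assigned to that mouse name, and its woodlouse counterpart is not known. The sources used here do not say how reads that fit several members of a family were divided, and every member below has relatives in its family.

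Many of these carriers use gradients set up by the sodium and proton pumps. Slc1 and part of Slc6 take up glutamate, GABA and other transmitters with sodium, which clears them after release; glutamate and GABA are also transmitters at crustacean neuromuscular junctions. Slc7 proteins exchange or carry amino acids, many of them bound to the heavy chains Slc3a1 or Slc3a2 in mammals. Slc2 and part of Slc5 carry sugars, Slc4 bicarbonate, Slc8 sodium against calcium, Slc9 sodium against protons, and Slc12 chloride together with sodium or potassium. The Slc4, Slc9 and Slc12 proteins are known for setting cell pH, cell volume and chloride.

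Libraries held 403971 to 1122154 counted reads, of which 528 to 1401 lay on the 107 rows (0.0886% to 0.260%). Of the 107 rows, 100 had a read in any library. The 7 without a read were Slc2a4, Slc2a6, Slc4a9, Slc5a10, Slc6a7, Slc7a10 and Slc9a7. Testing required a normalised mean over the 6 samples of 10 or more. The normalised read count is the number of reads divided by the size factor of the sample. Depth-adjusted ratios below use the same size factors, which did not follow the number of counted reads. Rolling 1 had 539367 reads and a size factor of 1.90, while rolling 3 had 1122154 reads and 0.92. The 20 rows above the level for testing were all carriers, and the other 80 with reads were below it. A row that is high in a single group can pass this level through that group alone, so the counts of rows passing it are descriptions. Since gene lengths were not used, levels are compared between samples for the same gene and not between genes.

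Of the 20 tested carriers, 5 were higher and 9 lower in rolling by limma, a linear model across all tested features, with an adjusted p under 0.05. That is 70.0% called, against 75.2% of the 2948 features tested, with 37.8% of them higher and 37.4% lower. The carriers called higher included Slc1a2, Slc4a2, Slc7a1 and Slc12a1. Those called lower were Slc2a9, Slc4a4, Slc5a5, Slc6a17, Slc7a4, Slc7a7, Slc8a2, Slc8a3 and Slc9c1. The remaining 6, Slc4a7, Slc5a12, Slc7a11, Slc8a1, Slc9b2 and Slc12a2, did not pass. The groups did not overlap for 15 of the 20 (75.0%), against 78.7% of all tested features. The median log2 fold change of the 20 was -0.03 and its median size 3.06, beside 0.10 and 2.82 over all tested features. By share and size of change the tested carriers therefore stood near the background, and what follows describes which carriers lay on which side. All samples are bulk tissue, so fewer cells of a type and less RNA per cell cannot be told apart in any of these differences.

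**Figure D1:**
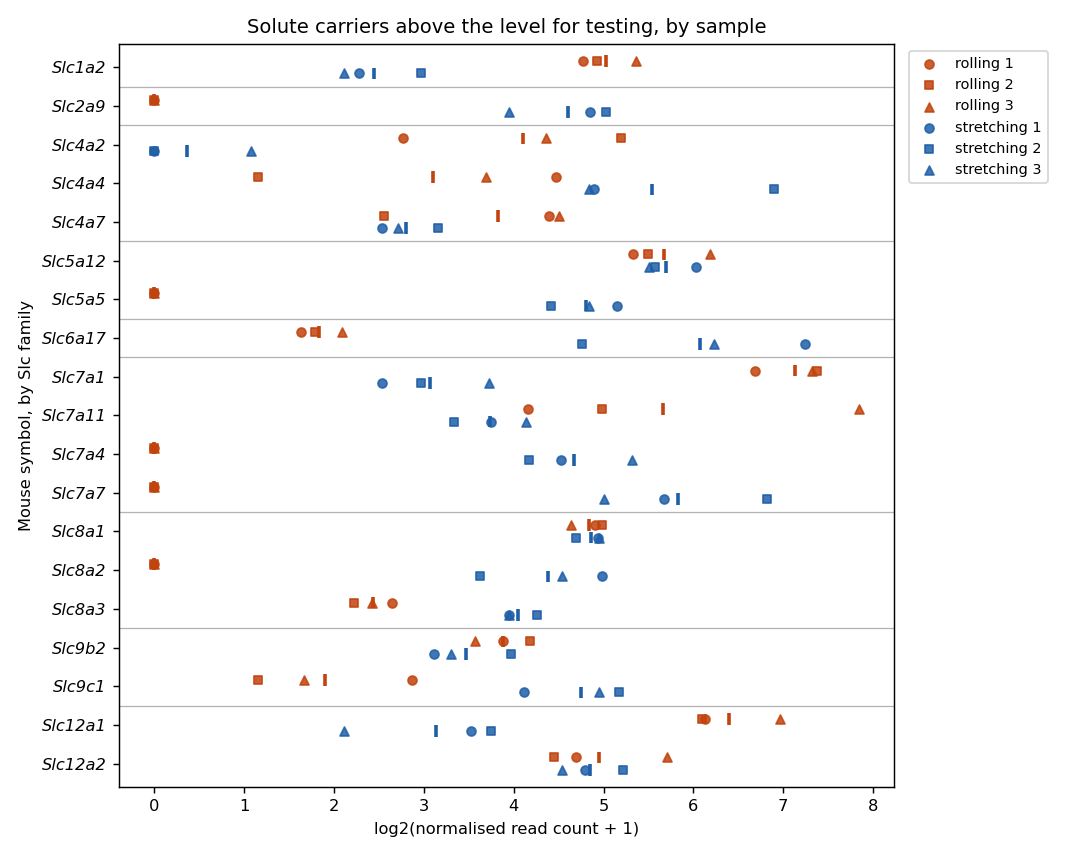
Level of 19 of the 20 tested carriers in each sample, as log2(normalised read count + 1), with symbols by replicate, colours by group and a short bar at the group mean. Slc2a9, Slc5a5, Slc7a4, Slc7a7 and Slc8a2 lie at 0 in all 3 rolling samples, while Slc4a7, Slc5a12, Slc8a1, Slc9b2 and Slc12a2 overlap between groups.

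Among the glutamate carriers of Slc1, Slc1a2, the main glutamate uptake carrier of mammalian astrocytes, stood at normalised read counts of 26.4, 29.4 and 40.2 in rolling 1 to 3 and 3.83, 6.79 and 3.32 in stretching 1 to 3. All rolling samples lay above all stretching samples. The log2 fold change was 2.57 (SE 0.42; adjusted p 0.00039 by limma), and it rested on 111 reads against 13. The other 6 members of the family were below the level for testing. Slc1a3, another glutamate carrier, had 12, 16 and 4 reads in rolling and 1, 0 and 0 in stretching. Slc1a1 and Slc1a7, also glutamate carriers, had 8 and 14 reads in rolling and none in stretching, and Slc1a4, a carrier of small neutral amino acids, had 9 and none. Slc1a6 had 2 reads in rolling alone, and Slc1a5, the neutral amino acid and glutamine carrier, had a single read, in stretching 2. The family summed to 52.0 ± 10.8 in rolling and 5.35 ± 2.35 in stretching (SD, 3 samples each), without overlap, and Slc1a2 made up 61.5% of the rolling sum. In the authors' deposited table Slc1a2 and Slc1a3 were called higher in rolling and none of the 5 Slc1 members with an adjusted p was called lower. Over all features with an adjusted p there, 18.7% were called higher and 18.5% lower.

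Slc6 carries transmitters, amino acids and related small molecules. Some of the GABA carriers, Slc6a11, Slc6a12 and Slc6a13, had 1, 0 and 0 reads in rolling and 3, 5 and 5 in stretching. These few reads do not describe the GABA carriers as a set. The monoamine carriers Slc6a2, Slc6a3 and Slc6a4, for noradrenaline, dopamine and serotonin, had 8, 3 and 1 reads in rolling and 0, 11 and 0 in stretching. The depth-adjusted ratio of Slc6a3 was 4.71 toward stretching (95% counting interval 1.24 to 26.3), without overlap of the normalised values, and it was not called in the authors' deposited table (adjusted p 0.28). Slc6a8, the creatine carrier, just below the level for testing with a mean of 9.76, had 31 reads in each group. Its depth-adjusted ratio was 1.28 toward stretching (95% counting interval 0.755 to 2.18), within counting error.

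Slc6a17, which loads neutral amino acids into synaptic vesicles in mammals, was called lower in rolling. It stood at normalised read counts of 2.11, 2.45 and 3.26 in rolling 1 to 3 and 150.4, 26.0 and 74.2 in stretching 1 to 3. The stretching samples varied widely, with stretching 2 lowest, and yet lay above all rolling samples. The log2 fold change was -4.24 (SE 0.60; adjusted p 0.00018 by limma), and -4.90 without stretching 2. Below the level for testing, the glycine carrier Slc6a9 had 48 reads in rolling and 11 in stretching, a depth-adjusted ratio of 3.40 (95% counting interval 1.74 to 7.25). Slc6a9 was not called in the authors' deposited table (adjusted p 0.08). Slc6a15, a neutral amino acid carrier, had 10, 9 and 8 reads in rolling and 0, 0 and 1 in stretching, a depth-adjusted ratio of 21.0 (3.47 to 861). Slc6a19, the neutral amino acid carrier of mammalian gut and kidney, had 19 reads in rolling and none in stretching, and Slc6a19os, its opposite-strand transcript, had 7 and none. Since strand use in counting is not given, reads of these 2 cannot be told apart. Over the 19 members, the summed level of Slc6 was 131 ± 47.7 in rolling and 114 ± 62.1 in stretching (SD, 3 samples each), with overlap, and Slc6a17 made up 73.5% of it in stretching.

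Because Slc1a2 and Slc6a17 are neuronal or glial genes in mammals, markers of neurons are given beside them. Of 10 neuron markers, 9 had reads and only Tubb3, a neuronal beta-tubulin, reached the level for testing and was called higher in rolling. Their summed normalised read count ranged from 131 to 305 in rolling and 59.4 to 72.5 in stretching. Tubb3 held most of it, at 185 ± 98.2 and 51.5 ± 9.32 (SD, 3 samples each). Of the other markers, Elavl4, Rbfox3, Nefl, Syt1, Syn1 and Stmn2 had more reads in rolling, with 43, 14, 10, 17, 4 and 1 there and 16, 6, 4, 0, 0 and 0 in stretching. Snap25 and Map2 had more in stretching, with 1 read each in rolling and 6 and 7 in stretching, and Gap43 had no read. The part of neuron content in these results was not tested.

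Slc7 held the most tested carriers, 4, with 1 higher, 2 lower and 1 not called. Slc7a1, the main carrier of arginine and lysine in mammalian cells, stood at normalised read counts of 102, 165 and 159 in rolling 1 to 3 and 4.79, 6.79 and 12.2 in stretching 1 to 3. The groups were far apart, with a log2 fold change of 4.06 (SE 0.42; adjusted p 2.2e-05 by limma) on 475 reads against 22. Slc7a7, which exchanges arginine and lysine for neutral amino acids, had no read in any rolling sample and stood at 49.8, 112 and 31.0 in stretching 1 to 3. Counting the rolling group at 3 reads, the floor used for a group without reads, it was lower there by at least 76.6-fold, and by at least 49.8-fold without stretching 2. Slc7a4, a relative of Slc7a1 with no settled substrate, also had no read in rolling and stood at 22.04, 17.0 and 38.8 in stretching, at least 31.3-fold lower in rolling. The fitted log2 fold changes were -5.83 (SE 0.51; adjusted p 7.9e-06 by limma) for Slc7a7 and -4.67 (SE 0.41; adjusted p 8.0e-06 by limma) for Slc7a4. Without a read in rolling, such values depend on the pseudocount, the value added before taking logs. Their SE includes no spread between rolling samples. With pseudocounts of 8 and 0.5, Slc7a7 was at -3.02 and -6.82 and Slc7a4 at -2.03 and -5.64.

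Slc7a11, which exchanges cystine for glutamate, depended on a single library. It stood at normalised read counts of 16.9, 30.6 and 228 in rolling 1 to 3 and 12.5, 9.06 and 16.6 in stretching 1 to 3. Rolling 3 was far above the rest, while rolling 1 lay barely above stretching 3. The log2 fold change of 1.92 (95% interval 0.04 to 3.80) did not pass (limma adjusted p 0.061), although edgeR on the recovered reads gave 2.59 with an adjusted p of 0.010. It passed in the authors' deposited table as well, with an adjusted p of 0.0042. Without rolling 3 the log2 fold change was 0.83 and did not pass (limma adjusted p 0.14).

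Among the Slc7 members with fewer reads, Slc7a13 and Slc7a14 lay on the rolling side and Slc7a12 on the stretching side. Slc7a13, an aspartate and glutamate carrier, had 18, 15 and 5 reads in rolling and 1, 0 and 0 in stretching, a depth-adjusted ratio of 29.6 (95% counting interval 4.999 to 1199). Slc7a14, an intracellular relative of the cationic amino acid carriers, had 11, 5 and 9 reads and 0, 0 and 1, a depth-adjusted ratio of 19.5 (3.19 to 799). Slc7a12 had 0, 1 and 0 reads in rolling and 12, 13 and 9 in stretching, a depth-adjusted ratio of 43.7 (7.33 to 1775) in the opposite direction. The authors' deposited table called these 3, with adjusted p of 0.0062, 0.025 and 0.0016. Slc7a2, a cationic amino acid carrier, had 13 and 7 reads, and the ratio of 1.45 (0.536 to 4.28) showed no difference beyond counting error. Slc3a2, the heavy chain that several Slc7 proteins need in mammals, had only 4 reads in rolling and 1 in stretching, and Slc3a1 had 2 and 1. The summed level of Slc7 was 260.2 ± 133 in rolling and 136 ± 30.7 in stretching (SD, 3 samples each), with overlap. Slc7a1 made up 54.6% of the rolling sum and Slc7a7 47.4% of the stretching sum.

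**Figure D2:**
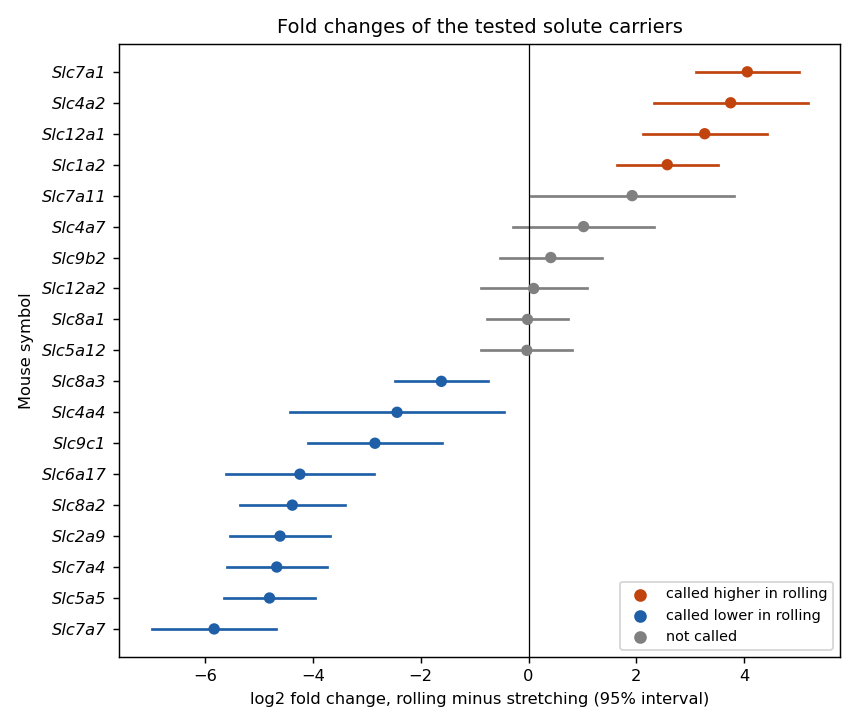
Log2 fold change of 19 of the 20 tested carriers, as the difference of rolling from stretching in log2(value + 1), with limma's 95% interval as a line and colour by call. The carriers called higher that are shown run from Slc1a2 at 2.57 to Slc7a1 at 4.06, and the 9 called lower from Slc8a3 at -1.62 to Slc7a7 at -5.83. For carriers without a read in rolling, value and interval depend on the pseudocount.

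Sugar carriers had few reads. Only Slc2a9, which carries urate rather than sugar in mammals, was tested among the 20 carriers of sugars, polyols and urate. It had no read in rolling and normalised read counts of 27.8, 31.7 and 14.4 in stretching 1 to 3, which made it at least 30.0-fold lower in rolling. Its fitted log2 fold change was -4.61 (SE 0.41; adjusted p 8.4e-06 by limma). Of the myo-inositol carriers, Slc2a13, driven by protons, had 36, 8 and 14 reads in rolling and 1, 0 and 1 in stretching, a depth-adjusted ratio of 22.6 (95% counting interval 5.98 to 191). Slc5a3, driven by sodium, had 12, 20 and 9 reads in rolling and 1, 0 and 1 in stretching, a depth-adjusted ratio of 15.96 (4.15 to 136). Slc5a11, also driven by sodium, had 22 and 37 reads, a depth-adjusted ratio of 2.16 (1.24 to 3.84) toward stretching. Slc2a13 and Slc5a3 were called higher in rolling in the authors' deposited table, with adjusted p of 0.0034 and 0.0077, and Slc5a11 was not called, with 0.25.

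Slc2a10, an intracellular member of the glucose carrier family, had 18, 23 and 16 reads in rolling and 0, 1 and 0 in stretching, a depth-adjusted ratio of 44.4 (95% counting interval 7.65 to 1783). Few reads were assigned to the names of the glucose carriers of mammalian plasma membranes. Slc2a1 had no read in rolling and 13 in stretching, and the authors' deposited table called it with an adjusted p of 0.029. Slc2a2 had 16 and 20 reads and Slc2a3 21 and 9, with ratios of 1.61 (0.790 to 3.31) toward stretching and 1.82 (0.798 to 4.51) toward rolling, both within counting error. Slc2a4, the insulin-responsive carrier, had none. The intestinal glucose carrier Slc5a1 had 4 and 7 reads, and Slc5a2 of the kidney had 1 and 0. Summed over the 20 carriers of the class, the level was 72.2 ± 20.5 in rolling and 67.6 ± 24.2 in stretching (SD, 3 samples each), with overlap.

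The remaining Slc5 carriers take up iodide, vitamins, choline and monocarboxylates with sodium. Slc5a5, the iodide carrier of the vertebrate thyroid, had no read in rolling and normalised read counts of 34.5, 20.4 and 27.7 in stretching 1 to 3. In rolling it was at least 33.8-fold lower, and the fitted log2 fold change was -4.80 (SE 0.37; adjusted p 4.0e-06 by limma). Slc5a12, a carrier of lactate and other monocarboxylates, stood at 39.0, 44.1 and 71.7 in rolling 1 to 3 and 64.2, 46.4 and 44.3 in stretching 1 to 3. The groups overlapped, and the log2 fold change was -0.03 (95% interval -0.87 to 0.81; adjusted p 0.94 by limma). Slc5a7, the choline carrier of cholinergic neurons, had 13, 7 and 10 reads in rolling and 3, 1 and 1 in stretching. Its ratio was 4.67 (95% counting interval 1.80 to 15.4), and it was not called in the authors' deposited table (adjusted p 0.081). Slc5a8, like Slc5a12 a carrier of monocarboxylates, had 12, 3 and 2 reads in rolling and 2, 2 and 0 in stretching, with overlap of the normalised values.

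Among the bicarbonate carriers of Slc4, 1 was called higher in rolling, 1 was called lower and 1 did not pass. Slc4a2, which exchanges chloride for bicarbonate, stood at normalised read counts of 5.80, 35.5 and 19.6 in rolling 1 to 3 and 0, 0 and 1.11 in stretching 1 to 3. With 58 reads against 1, the ratio was 45.2 (95% counting interval 7.79 to 1814), and the fitted log2 fold change was 3.75 (SE 0.63; adjusted p 0.00051 by limma), or 4.42 without rolling 1. Slc4a4, a cotransporter of sodium and bicarbonate, stood at 21.1, 1.22 and 11.95 in rolling and 28.7, 118 and 27.7 in stretching. Both groups were spread, with rolling 2 very low and stretching 2 very high. The log2 fold change was -2.44 (SE 0.88; adjusted p 0.030 by limma). The call was lost without rolling 2 (-1.46, adjusted p 0.10), stretching 1 (-2.76, 0.058), stretching 2 (-1.76, 0.15) or stretching 3 (-2.79, 0.055) by limma, and without rolling 1 the value was -3.12.

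Slc4a7, another sodium and bicarbonate cotransporter, stood at 20.03, 4.90 and 21.7 in rolling 1 to 3 and 4.79, 7.93 and 5.54 in stretching 1 to 3. Rolling 2 lay within the stretching range, and the log2 fold change of 1.02 (95% interval -0.28 to 2.32) did not pass (limma adjusted p 0.13). Without rolling 2 it was 1.65 and passed (limma adjusted p 0.0095). Slc4a10 and Slc4a3 had 11 and 8 reads in rolling and 26 and 18 in stretching, with ratios of 3.04 (95% counting interval 1.45 to 6.81) and 2.89 (1.20 to 7.68) toward stretching. Neither was called in the authors' deposited table. The summed level of Slc4 was 55.5 ± 4.81 in rolling and 88.0 ± 46.4 in stretching (SD, 3 samples each), with overlap. Of 16 carbonic anhydrases, which supply bicarbonate, 13 had reads and only Car6, a secreted form in mammals, was tested. Car6 rose on the log2 scale by 2.83 (SE 0.49; adjusted p 0.00062 by limma), from 1.82 ± 1.37 to 18.6 ± 7.75 (SD, 3 samples each).

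Of the 3 tested sodium and calcium exchangers of Slc8, 2 were lower in rolling and 1 did not pass. Slc8a1, the exchanger of vertebrate heart muscle, stood at normalised read counts of 29.0, 30.6 and 23.9 in rolling 1 to 3 and 29.7, 24.9 and 29.9 in stretching 1 to 3. It was nearly level in all 6 samples, with a log2 fold change of -0.02 (95% interval -0.78 to 0.74; adjusted p 0.96 by limma). Slc8a2, best known from neurons, had no read in rolling and stood at 30.7, 11.3 and 22.2 in stretching, at least 26.5-fold lower in rolling. Its fitted log2 fold change was -4.38 (SE 0.43; adjusted p 1.5e-05 by limma). Slc8a3, found in skeletal muscle and brain of mammals, stood at 5.27, 3.67 and 4.35 in rolling and 14.4, 18.1 and 14.4 in stretching, without overlap. The log2 fold change was -1.62 (SE 0.38; adjusted p 0.0038 by limma), while the authors' deposited table gave an adjusted p of 0.052. The mitochondrial exchanger Slc8b1 had a single read.

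Summed over Slc8, the level was 32.4 ± 3.63 in rolling and 65.2 ± 10.3 in stretching (SD, 3 samples each), without overlap, and Slc8a1 made up 85.8% of it in rolling and 43.2% in stretching. Muscle markers are given beside these exchangers. Of 14, 13 had reads, and of the 6 tested, 3 were called higher in rolling (Myh3, Acta1 and Ttn) and 1 lower (Myh6). Over all tested features, 37.8% were called higher and 37.4% lower. Myh6 had 33 reads in rolling and 4405 in stretching. The summed normalised read count of the 14 markers ranged from 16222 to 70506 in rolling and 11986 to 15110 in stretching, most of it actin. Below the level for testing, Myh2 and Myh8 had 35 and 23 reads in rolling and 4 each in stretching. Myh1, Myh4 and Tpm1 had 11, 13 and 11 in rolling and 41, 21 and 42 in stretching. Tnni2, a fast troponin, had no read, and Tnnt3 and Tpm2 had 6 and 3 in all. The part of muscle content in the levels of Slc8 was not tested.

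Of the 12 sodium and proton exchangers of Slc9, 11 had reads and 2 were tested. Slc9c1, known from sperm of mammals and sea urchins, stood at normalised read counts of 6.32, 1.22 and 2.17 in rolling 1 to 3 and 16.3, 35.1 and 29.9 in stretching 1 to 3. All stretching samples were higher, and the log2 fold change was -2.85 (SE 0.55; adjusted p 0.0011 by limma). Slc9b2, a widely expressed exchanger, stood at 13.7, 17.1 and 10.9 in rolling and 7.67, 14.7 and 8.86 in stretching, with overlap. Its log2 fold change was 0.41 (95% interval -0.53 to 1.36; adjusted p 0.39 by limma). Of the exchangers of gut and kidney epithelia in mammals, Slc9a2 and Slc9a3 had 1 read each assigned to their names. Slc9a4, an exchanger of the mammalian stomach, had 24 and 11 reads, a depth-adjusted ratio of 1.70 (95% counting interval 0.801 to 3.84), and Slc9b1, known from testis, had 17 and 3, with a ratio of 4.41 (1.28 to 23.5). Neither was called in the authors' deposited table. The summed level of Slc9 was 38.0 ± 1.86 in rolling and 50.3 ± 14.02 in stretching (SD, 3 samples each), with overlap.

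Among the cation and chloride cotransporters of Slc12, Slc12a1, which takes up sodium, potassium and chloride in the mammalian kidney, stood at normalised read counts of 69.0, 67.3 and 124 in rolling 1 to 3 and 10.5, 12.5 and 3.32 in stretching 1 to 3. Every rolling sample exceeded every stretching sample, with a log2 fold change of 3.27 (SE 0.51; adjusted p 0.00031 by limma) on 300 reads against 25. Slc12a2, which carries the same ions in most mammalian tissues, stood at 24.8, 20.8 and 51.1 in rolling and 26.8, 36.2 and 22.2 in stretching. The groups overlapped, and the log2 fold change was 0.10 (95% interval -0.88 to 1.08; adjusted p 0.85 by limma).

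Below the level for testing, Slc12a7, a potassium and chloride cotransporter, had 16 and 14 reads, a depth-adjusted ratio of 1.12 (95% counting interval 0.508 to 2.46) toward stretching. Slc12a8, whose substrate is debated, had 2, 1 and 0 reads in rolling and 12, 11 and 8 in stretching, a depth-adjusted ratio of 13.3 (4.14 to 67.8). In the authors' deposited table Slc12a8 was called lower in rolling (adjusted p 0.0085). Slc12a3, the sodium and chloride cotransporter of the mammalian kidney, had 18 reads in rolling and none in stretching and was not called there (adjusted p 0.095). The summed level of Slc12 was 141 ± 58.6 in rolling and 53.9 ± 13.5 in stretching (SD, 3 samples each), without overlap, and Slc12a1 made up 61.6% of it in rolling.

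Genes that act with these carriers were compared from a list of 20 subunits and regulators, of which 19 were in the table, 16 had reads and 5 were tested. Wnk4, a kinase that controls Slc12 cotransporters in the mammalian kidney, had no read in stretching and 41.1, 63.7 and 23.9 normalised reads in rolling 1 to 3, at least 39.4-fold higher, and at least 24.9-fold without stretching 1. It was the only one called by limma, while Wnk1, Wnk3, Stk39 and Nedd4l did not pass. Stk39, the kinase between the Wnk kinases and the cotransporters, had normalised read counts of 15.4 ± 16.5 in rolling samples and 17.2 ± 12.95 in stretching samples (SD, 3 samples each).

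**Figure D3:**
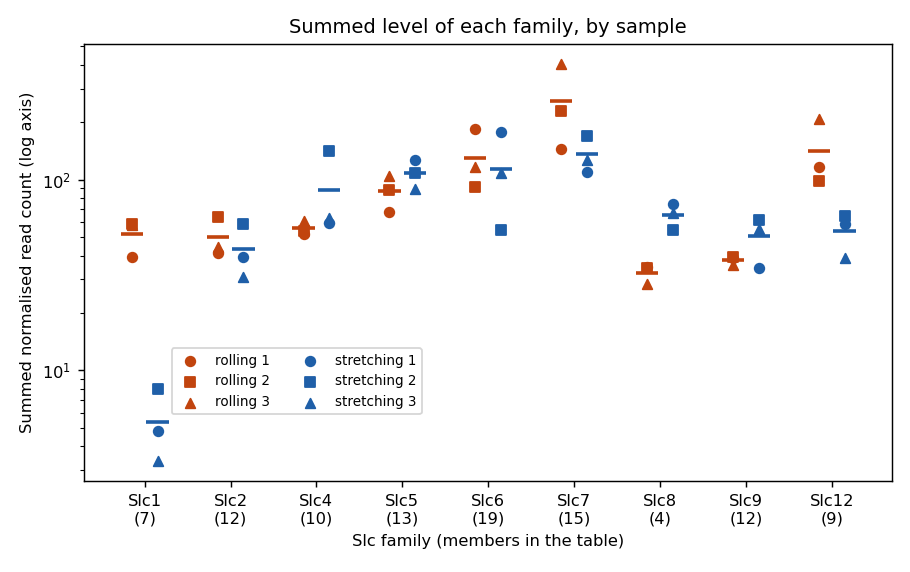
Summed normalised read count of the carriers of each family in each sample, on a log axis, with colours by group, symbols by replicate, a bar at the group mean and the number of carriers in brackets. The groups do not overlap for Slc1 (52.0 against 5.35), Slc8 (32.4 against 65.2) and Slc12 (141 against 53.9), and overlap for the other 6 families.

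Seen across families, the summed level of a family often hid members that lay on opposite sides. All 101 carriers summed to 846 ± 187 in rolling and 664 ± 71.4 in stretching (SD, 3 samples each), with overlap. The summed levels of Slc2, Slc4, Slc5, Slc6, Slc7 and Slc9 overlapped between groups, although each of these families held 1 to 3 called members. In families such as Slc4 and Slc7, called members lay on both sides. The member with the largest share of reads differed between groups in 6 of the 9 families, and was the same in Slc1, Slc5 and Slc8. Read counts are not corrected for gene length, so these shares describe reads and not transcripts. Sums were not tested.

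**Figure D4:**
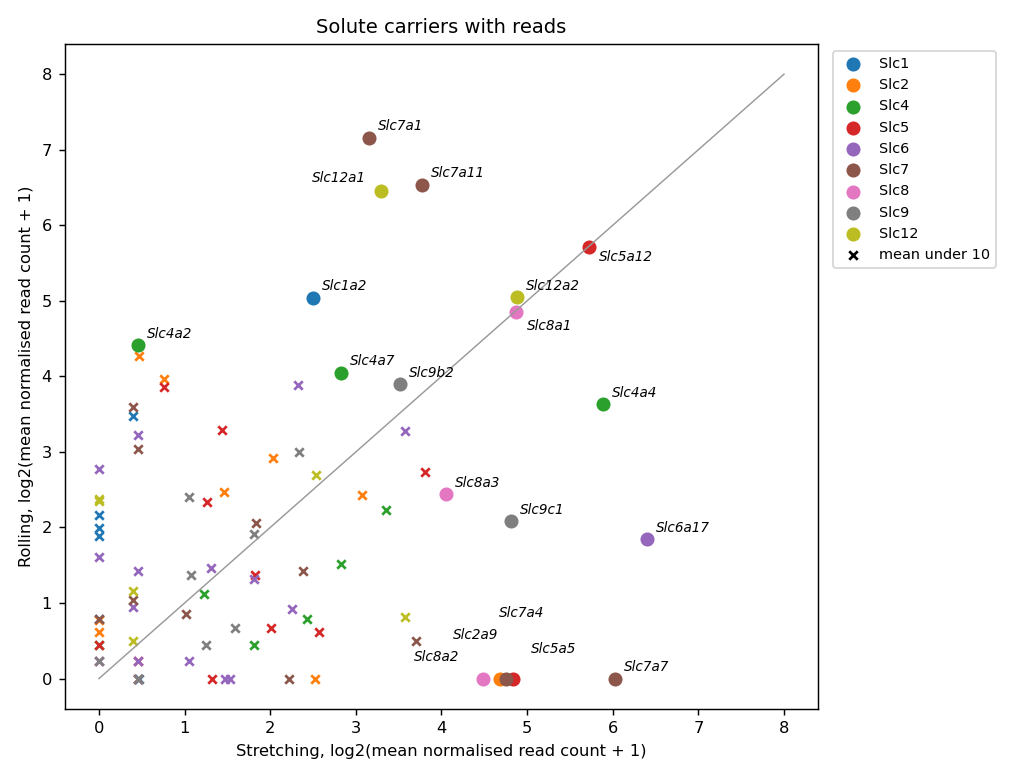
Mean level of carriers with reads in stretching (horizontal) and rolling (vertical), as log2(mean normalised read count + 1), with colour by family. Filled circles are 19 of the 20 tested carriers, crosses have a mean under 10, and the line marks equal levels. Slc7a1 and Slc12a1 lie above it, Slc6a17 and Slc9c1 below it, and 5 tested carriers lie at 0 in rolling.

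Of the 107 rows, 44 had at least 20 reads over the 6 samples. Among these, 5 (11.4%) had none in rolling, which were Slc2a9, Slc5a5, Slc7a4, Slc7a7 and Slc8a2, against 5.74% of all features with as many reads. None had reads in rolling alone at this level, against 7.59% of all features. The floors of these 5 rest largely on rolling 1, the rolling sample with the largest size factor. Without it their lower bounds were 14.3-fold for Slc2a9, 16.2 for Slc5a5, 14.9 for Slc7a4, 36.6 for Slc7a7 and 12.7 for Slc8a2. The other 56 rows with reads had under 20 in all.

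In the authors' deposited table, 68 of the 107 rows had an adjusted p, of which 15 were called higher and 11 lower in rolling. That is 38.2% called, against 37.2% of all features with an adjusted p, and the table gave none for 39 rows. Of these calls, 9 higher and 3 lower concerned rows below the level for testing here. Tested by limma with no filter, 39 of the 100 rows with reads were called (39.0%), against 31.6% of all features with reads. The calls of the authors' deposited table below the level for testing included Slc2a4rg-ps, which is no carrier, with 37 reads in rolling and 1 in stretching.

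Carriers outside the 9 families were compared from lists of other amino acid and peptide carriers and of other anion, sulfate and phosphate carriers. Of 27 amino acid and peptide carriers, all had reads but only Slc38a2, a glutamine carrier, was tested, and it did not pass (log2 fold change -0.88, SE 0.39; adjusted p 0.065 by limma). Of 21 anion, sulfate and phosphate carriers, 18 had reads and 5 were tested, with 3 higher and 1 lower. Over all tested features, 37.8% were called higher and 37.4% lower. The sulfate carriers Slc13a1 and Slc13a4 had 112 and 106 reads in rolling against 2 and 1 in stretching. The chloride and bicarbonate carriers Slc26a7 and Slc26a9 lay on opposite sides, at least 49.6-fold higher in rolling and at least 55.2-fold lower. These bounds were 31.3-fold for Slc26a7 without stretching 1 and 26.4-fold for Slc26a9 without rolling 1. Among gut and digestive gland markers, 10 of 12 had reads and 6 were tested, with 2 higher and 4 lower, beside the same shares over all tested features. Amy1 and Mgam were higher in rolling, while Amy2a5, Amy2b, Sis and Cpb1 were lower, so related enzymes lay on opposite sides. The summed normalised read count of the 12 markers ranged from 582 to 1746 in rolling and 1388 to 1648 in stretching.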

How the data were processed

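The deposited table holds, per the file headers and values, a signal for each row and sample, which is reads divided by a size factor per sample, and the authors' mean signal. It also holds the authors' log2 fold change and its standard error, a Wald score, and p-values and adjusted p-values. The submitters' processing notes name BWA, DESeq2 and mm10, with neither versions nor roles. The sources used here do not give the counting program, its treatment of shared reads or its strand setting. Columns headed curl and strait were read by word meaning as rolling (curl) and stretching (strait), with the number as replicate.

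Whole reads were recovered as multiples of the smallest value above 0 in each column, for 100.0% of values within 1e-06. Signals were tested with limma 3.58.1 (R 4.3.3, mean-variance trend, two-sided) on log2(value + 1). This covered the 2948 features whose mean reached 10. Benjamini-Hochberg adjustment was made over all of them, with a threshold of 0.05. This scale understates changes of low rows. edgeR 4.0.16 on the recovered reads called 2244 of the same features. DESeq2 1.42.0 on the recovered reads called 3951 features, all also called in the authors' deposited table. Ratios of reads are adjusted by size factors and carry exact (Clopper-Pearson) 95% intervals. Floors of 3 reads are over a group, and both cover counting error only. In single libraries 3 reads are worth 1.58 to 3.67 normalised reads.

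All rows matching the name rule were kept. Those above the level for testing are given by sample, those with at least 20 reads by their reads, and most others as counts. Rows with fewer reads that are named were chosen after their values were seen, for completeness of a family. Carriers, substrate classes and gene lists (subunits and regulators, carbonic anhydrases, other carriers, and markers of muscle, neurons and gut) were chosen with earlier results of these data known. Some carriers are counted in totals but not reported here by name. Samples were not paired.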

Additional observations from a re-analysis of the deposited data

How the results depend on the processing

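The counts of called carriers were 5 higher and 9 lower in rolling. They stayed at 5 to 6 and 8 to 9 with pseudocounts of 0.5 and 8, TMM, library-total and quantile scaling, edgeR, DESeq2, the authors' adjusted p and each sample left out. Without a filter, 24 were higher and 15 lower among 100 rows with reads (39.0%, against 31.6% of all features), because 80 more rows were tested. No carrier remained with a minimum mean of 100. All called features numbered 2217, 5773 without a filter and 284 with that minimum. Of 320 values of the 20 carriers under the alternatives, 307 kept their call and 13 did not, all of Slc4a4, Slc4a7, Slc7a11 and Slc8a3. The fitted values of carriers without a read in rolling moved with the pseudocount. With 8 and 0.5 they were -1.99 and -5.58 for Slc2a9, and -2.13 and -5.78 for Slc5a5. For Slc8a2 they were -1.82 and -5.34. Samples with the same replicate number did not deviate together (correlations 0.02, -0.01 and 0.01). The other pairs of a rolling and a stretching sample ranged from -0.03 to 0.02. The replicate block gave 6 higher and 9 lower, adding Slc7a11 (limma adjusted p 0.0051). Over all tested features, the median log2 fold change of 0.10 became -0.06 with library-total scaling. Library-total scaling also called Slc7a11 (0.037), as did leaving out rolling 1 (0.024), while leaving out rolling 3 did not (limma adjusted p 0.14). The cause was not tested. The log2 ratio of the summed level of Slc4 was -0.67, and -0.88 to -0.14 with a sample left out, the latter without stretching 2. The sums of Slc2 and Slc6 changed sign within their spread when a sample was left out (to -0.01 for Slc2; to -0.13 for Slc6). Sums, reads in a single group and lower bounds of folds were examined under alternatives chosen after seeing the data. The count of 5 carriers with at least 20 reads in a single group ranged from 5 to 8 with a sample left out. At this depth, rows with under 20 reads show only very large differences.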
